A study of Triticum aestivum with 18 samples.

Results

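The late risers are 200 wheat probe sets whose signal stayed near its starting level through the first 24 h of greenbug infestation and was then higher at 48 h in both wheat lines. A probe set is the group of short oligonucleotides on an Affymetrix array that together read 1 transcript or a few related ones. The members were taken from 61290 probe sets by group means of log2(signal + 16). A member had no gene symbol or only a LOC number, was no control, and had a mean signal of at least 200 in its brightest group. In both lines its change over the first 24 h lay within 0.5 either way and its change between 24 h and 48 h was at least 0.6. Of 25715 non-control probe sets with a brightest group mean of 200 or more, 223 met the time thresholds (0.867%), and the 200 with the largest late change, averaged over the lines, were kept. All 200 also passed the filter on low signals used for the tests below.

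The study used near-isogenic lines of bread wheat, TXGBE273, which resists the greenbug aphid, and TXGBE281, which is susceptible to it, so that each state is represented by 1 line. Leaf tissue of greenhouse plants with 3 leaves was sampled from the resistant line at 0 h, 24 h and 48 h and from the susceptible line at 0 h, 24 h and 48 h of feeding by greenbug biotype E, and each of the 6 groups had 3 arrays. The 0 h plants were labelled controls, and uninfested plants of the later times were not analysed here, so infestation, plant age and time of sampling cannot be told apart in any change over time. RNA came from bulk leaf tissue, so more cells of a type and more RNA per cell cannot be told apart either. Whether replicates are separate plants is not in the labels, and p-values measure only the spread among these samples.

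The greenbug feeds from the phloem and injects saliva that yellows the leaves of susceptible plants. In plants attacked by aphids, signalling through calcium, reactive oxygen and the hormones salicylic acid and jasmonic acid comes early. Changes in cell walls, secondary metabolites, photosynthesis and nutrient transport are often seen later. Bread wheat is hexaploid, with related gene copies on its A, B and D subgenomes, so 1 probe set can read several copies. The end of a probe set's name tells how specific it is by design. Names ending in _a_at read transcripts of 1 gene, those in _s_at match transcripts of several genes, and those in _x_at hold some probes that also match other sequences. The stem of the name (such as Ta.9347) stands for the sequence cluster from which the probe sets were designed.

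The members' genes are mostly unidentified. Of the 200 probe sets, 193 had no symbol in the platform annotation and 7 had the LOC numbers of 6 genes, all of them protein-coding in the RefSeq gene table and none with a further name there. No role is therefore given for any member. Genes with a name were outside the rule, and none of their 104 probe sets with the same brightness met its time thresholds. Of 722 such probe sets with a LOC number 7 did.

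Leaf genes each had a bright probe set on every array, although some of their other probe sets were dim. The brightest of rbcL, the large subunit of the carbon-fixing enzyme Rubisco, gave 45470 to 94880, and one of PsbO, a photosystem II protein, gave 23921 to 73631. Among the grain storage genes, the 3 probe sets of Glu-D3, a glutenin, gave at most 268, while the gliadin gene LMGli2482 had a median of 18.2 over the 18 arrays but reached 2758.

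Of the 18 arrays, 2 at 24 h stood apart for the late risers. The mean level of the 200, as log2(signal + 16), was 9.01, 8.90 and 8.89 in resistant leaves at 0 h, 8.77, 9.13 and 9.12 at 24 h, and 10.00, 9.94 and 9.95 at 48 h. In susceptible leaves it was 8.93, 8.83 and 8.97 at 0 h, 9.19, 8.55 and 8.97 at 24 h, and 10.18, 10.14 and 10.19 at 48 h. Resistant replicate 1 and susceptible replicate 2 were thus the low arrays at 24 h, and all 3 arrays of each line at 48 h lay above every earlier array. Susceptible replicate 2 was the lowest of its 3 arrays in 156 of the 200 members (78%), and resistant replicate 1 in 134 (67%). Among 1084 other probe sets of the same brightness that were at least 0.6 higher at 48 h than at 24 h in both lines, called the other risers below, these shares were 79.7% and 54.2%. The median standard deviation among the 3 arrays at 24 h was 0.32 in resistant and 0.35 in susceptible leaves for the late risers, against 0.17 and 0.20 for all tested probe sets with a brightest group mean of 200 or more. Since the rule used the 24 h values of the members, this difference in spread is a description only. Of the 200 members, 130 still met the thresholds of the rule without resistant replicate 1 at 24 h, and 162 without susceptible replicate 2 at 24 h. The median late changes of the same 200 moved as well. Without resistant replicate 1 at 24 h the median late change of the members in resistant leaves was 0.77 in place of 0.87. Without susceptible replicate 2 at 24 h that in susceptible leaves was 0.99 in place of 1.13.

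**Figure D1:**
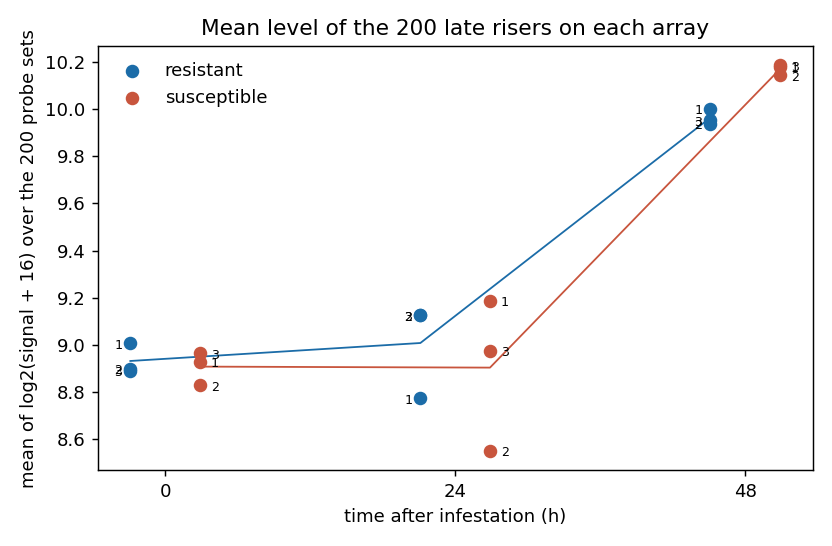
Mean level of the 200 late risers, as log2(signal + 16), on each of the 18 arrays against time after infestation in hours, with resistant arrays drawn left of susceptible ones at each time and numbered by replicate, and lines through the group means. The 48 h arrays lie between 9.94 and 10.19, above all others, and the lowest array is susceptible replicate 2 at 24 h, at 8.55.

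The size of the late change is a description, since it chose the members. Between 24 h and 48 h the median change was 0.87 on the log2 scale in resistant leaves (range 0.60 to 3.56) and 1.13 in susceptible leaves (0.61 to 5.04), against -0.04 in each line for all 46183 tested probe sets. Averaged over the lines, 107 members changed by 1 or more, 19 by 1.5 or more and 5 by 2 or more, so most late risers were a little above or below a doubling. In both lines 55 members changed by 1 or more. From 0 h to 48 h the median change was 1.04 in resistant leaves (0.22 to 3.98) and 1.18 in susceptible leaves (0.22 to 5.01). At 48 h all 3 resistant arrays lay above all 3 resistant arrays of 24 h for 176 members, where 9.71% of all tested probe sets did so. For 191 members the same held in susceptible leaves, where the share of all tested probe sets was 12.5%. The 48 h arrays lay above the 0 h ones for 180 members in resistant leaves (21.1% of all tested) and for 186 in susceptible leaves (22.4% of all tested). These counts follow from the choice of members and nothing is read from them.

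Within the flat window the members were not alike. At 24 h, 67 were slightly above 0 h in both lines, 43 were below it in both, and 57 were above it in resistant and below it in susceptible leaves. The other 33 were below it in resistant and above it in susceptible leaves. The members that were below 0 h at 24 h in both lines ended with a median 48 h minus 0 h change of 0.70 in resistant and 0.94 in susceptible leaves. For those above it in both lines these medians were 1.11 and 1.33. At the edge of the list, Ta.5029.2.A1_at, Ta.14550.1.S1_at and Ta.8982.1.A1_at were the last inside, each with a mean late change of 0.72. Ta.9517.1.S1_at (0.72), TaAffx.86269.1.S1_at (0.71) and Ta.13859.1.A1_at (0.71) were the first outside, so the cut at 200 parts probe sets of nearly the same change.

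In 159 of the 200 members (79.5%) the late change was larger in susceptible leaves, and the median of the resistant minus the susceptible late change was -0.30. Among all tested probe sets the share was 50.6%, and among the other risers, chosen by the same late threshold, it was 75.5%. The majority on the susceptible side was thus shared by the other risers, most of which had left the flat window by 24 h. Both sets were chosen on the late change and share the same 24 h arrays, so these shares are descriptions. The number of members was 134 without susceptible replicate 2 at 24 h, the low array, and 170 without susceptible replicate 1 at 24 h.

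**Figure D2:**
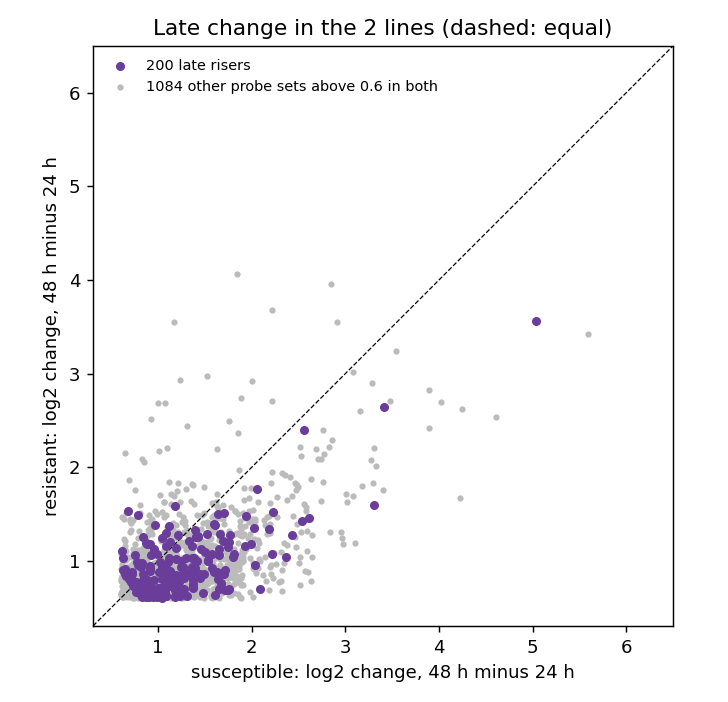
Late change (48 h minus 24 h, log2 scale) in resistant leaves against that in susceptible leaves for the 200 late risers and the 1084 other risers, with a dashed line where both are equal. Most late risers lie between 0.6 and 2 in both lines, 159 of them on the susceptible side of the line, and Ta.16779.1.S1_x_at lies far from the rest at 3.56 and 5.04.

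The late risers of highest rank had low signals up to 24 h and much higher ones at 48 h. Ta.16779.1.S1_x_at gave signals of 15.2, 6.37 and 55.7 at 0 h, 55.6, 50.2 and 9.32 at 24 h, and 1009.5, 385 and 460.2 at 48 h in resistant leaves. The susceptible arrays gave 75.3, 41.1 and 20.2 at 0 h, 48.8, 7.83 and 97.7 at 24 h, and 1662, 1499.6 and 2442 at 48 h. It was the member of highest rank, with late changes of 3.56 in resistant and 5.04 in susceptible leaves, and no 48 h array overlapped an earlier one. At 48 h the 3 resistant arrays were below the 3 susceptible ones, but the difference of -1.67 ± 0.56 (SE, n = 3 arrays per group, limma adjusted p = 0.0599) missed the threshold. Other probe sets of its stem were uneven. At 48 h Ta.16779.1.S1_at was called, at -2.12 ± 0.65 (SE, n = 3 arrays per group, limma adjusted p = 0.0361). Ta.16779.2.S1_s_at (-0.89) and Ta.16779.2.S1_x_at (0.30) were not. Ta.16779.2.S1_s_at had already changed by 1.74 in resistant and 2.53 in susceptible leaves at 24 h. Ta.24453.1.S1_s_at gave signals of 72.5, 57.4 and 12.3 at 0 h, 65.8, 60.7 and 39.4 at 24 h, and 745, 258 and 226 at 48 h in resistant leaves. Its signals in susceptible leaves were 7.38, 70.7 and 47.4 at 0 h, 68.9, 18.9 and 93.9 at 24 h, and 395, 339 and 438 at 48 h. This probe set, the third by rank, had late changes of 2.39 and 2.56 in resistant and susceptible lines. One resistant array at 48 h was far above the other 2, and the lines overlapped. The other tested probe sets of this stem were dim and less even between the lines. Ta.24453.1.S1_at had late changes of 0.61 in resistant and 2.71 in susceptible leaves, and Ta.24453.2.S1_at of 0.88 and 1.38.

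The stem Ta.9347 was the only one with 3 members, and all 3 were among the 6 of highest rank. Ta.9347.1.S1_s_at gave signals of 14.0, 64.5 and 12.8 at 0 h, 11.7, 10.9 and 21.5 at 24 h, and 199, 129.7 and 204 at 48 h in resistant leaves. On the susceptible arrays it read 10.2, 15.7 and 10.4 at 0 h, 11.0, 6.79 and 10.1 at 24 h, and 229, 294 and 239 at 48 h. The 12 arrays before 48 h read at most 64.5 and the 6 at 48 h at least 129.7, so no 48 h array overlapped an earlier one. Ta.9347.3.S1_x_at gave signals of 159, 133 and 113 at 0 h, 77.0, 200.4 and 193 at 24 h, and 495, 457 and 466 at 48 h in resistant leaves. Signals in susceptible leaves were 209.8, 28.1 and 174 at 0 h, 332, 26.6 and 44.6 at 24 h, and 899, 971 and 935 at 48 h. Susceptible replicate 1 was much brighter than the other 24 h arrays of its line. Ta.9347.2.A1_x_at gave signals of 199, 125 and 115 at 0 h, 151, 123 and 88.7 at 24 h, and 426, 316 and 306 at 48 h in resistant leaves. In susceptible leaves it gave 75.7, 138 and 112 at 0 h, 98.2, 109 and 106 at 24 h, and 632, 920.5 and 541 at 48 h. At 48 h the 3 resistant arrays of this probe set were below the 3 susceptible ones, and the difference between the lines was -0.95 ± 0.27 (SE, n = 3 arrays per group, limma adjusted p = 0.0252). The late changes of the 3 members were 2.65, 1.60 and 1.43 in resistant leaves and 3.41, 3.30 and 2.53 in susceptible leaves, in the order given. Probe sets of 1 stem can read the same transcript, so these 3 are not independent. The other probe sets of the stem, Ta.9347.3.S1_at and Ta.9347.2.A1_at, failed the flat window but were also higher at 48 h than at 24 h, by 1.85 and 1.31 in resistant leaves and by 2.76 and 2.83 in susceptible leaves.

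Other members of the top 12 were already bright before 48 h. Ta.13666.1.S1_x_at gave signals of 2575, 3739.6 and 3333 at 0 h, 1839.8, 3686 and 2929 at 24 h, and 9607, 9246 and 8993 at 48 h in resistant leaves. The susceptible arrays gave 3575, 2413 and 2386 at 0 h, 4324, 1608 and 3089.8 at 24 h, and 12009.9, 10868 and 12035 at 48 h. It combined a late change of 1.77 in resistant and 2.06 in susceptible leaves with 1 of the 5 brightest 48 h signals among the members. Ta.5372.1.S1_at gave signals of 1262, 1034 and 1024 at 0 h, 587, 1719.5 and 2102 at 24 h, and 2870.1, 3849.9 and 3216 at 48 h in resistant leaves. Its signals in susceptible leaves were 939, 1128 and 1135 at 0 h, 1554, 559 and 1630.2 at 24 h, and 4658, 5498 and 5412 at 48 h. Both low arrays at 24 h stood out here, with 587 on resistant replicate 1 and 559 on susceptible replicate 2. Ta.2126.1.S1_at gave signals of 324, 258 and 325 at 0 h, 216, 363 and 311 at 24 h, and 831, 617 and 1089 at 48 h in resistant leaves. On the susceptible arrays it read 248, 197 and 313 at 0 h, 484, 80.6 and 371 at 24 h, and 1820.0, 1261 and 1799 at 48 h. The resistant arrays at 48 h were below the susceptible ones, with a line difference of -0.95 ± 0.40 (SE, n = 3 arrays per group, limma adjusted p = 0.151) that missed the threshold.

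The remaining members of the top 12 had 48 h signals in a middle range. The late changes were 1.52 in resistant and 2.22 in susceptible leaves for Ta.18206.1.S1_at, and 1.28 and 2.43 for TaAffx.7275.1.S1_at. They were 1.47 and 1.94 for TaAffx.6429.1.S1_at, and 1.04 and 2.37 for Ta.9220.2.S1_x_at. In TaAffx.7275.1.S1_at the susceptible arrays at 24 h read 122, 3.90 and 109.8, so that 1 array set much of the change. Ta.9220.2.S1_x_at gave signals of 126, 146 and 51.4 at 0 h, 159.6, 17.8 and 132 at 24 h, and 144, 139 and 295 at 48 h in resistant leaves. Signals in susceptible leaves were 29.1, 39.5 and 43.1 at 0 h, 29.9, 9.36 and 71.9 at 24 h, and 261, 219 and 200.2 at 48 h. The resistant arrays at 48 h and 24 h overlapped in this probe set alone of the top 12, and the susceptible ones in none.

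**Figure D3:**
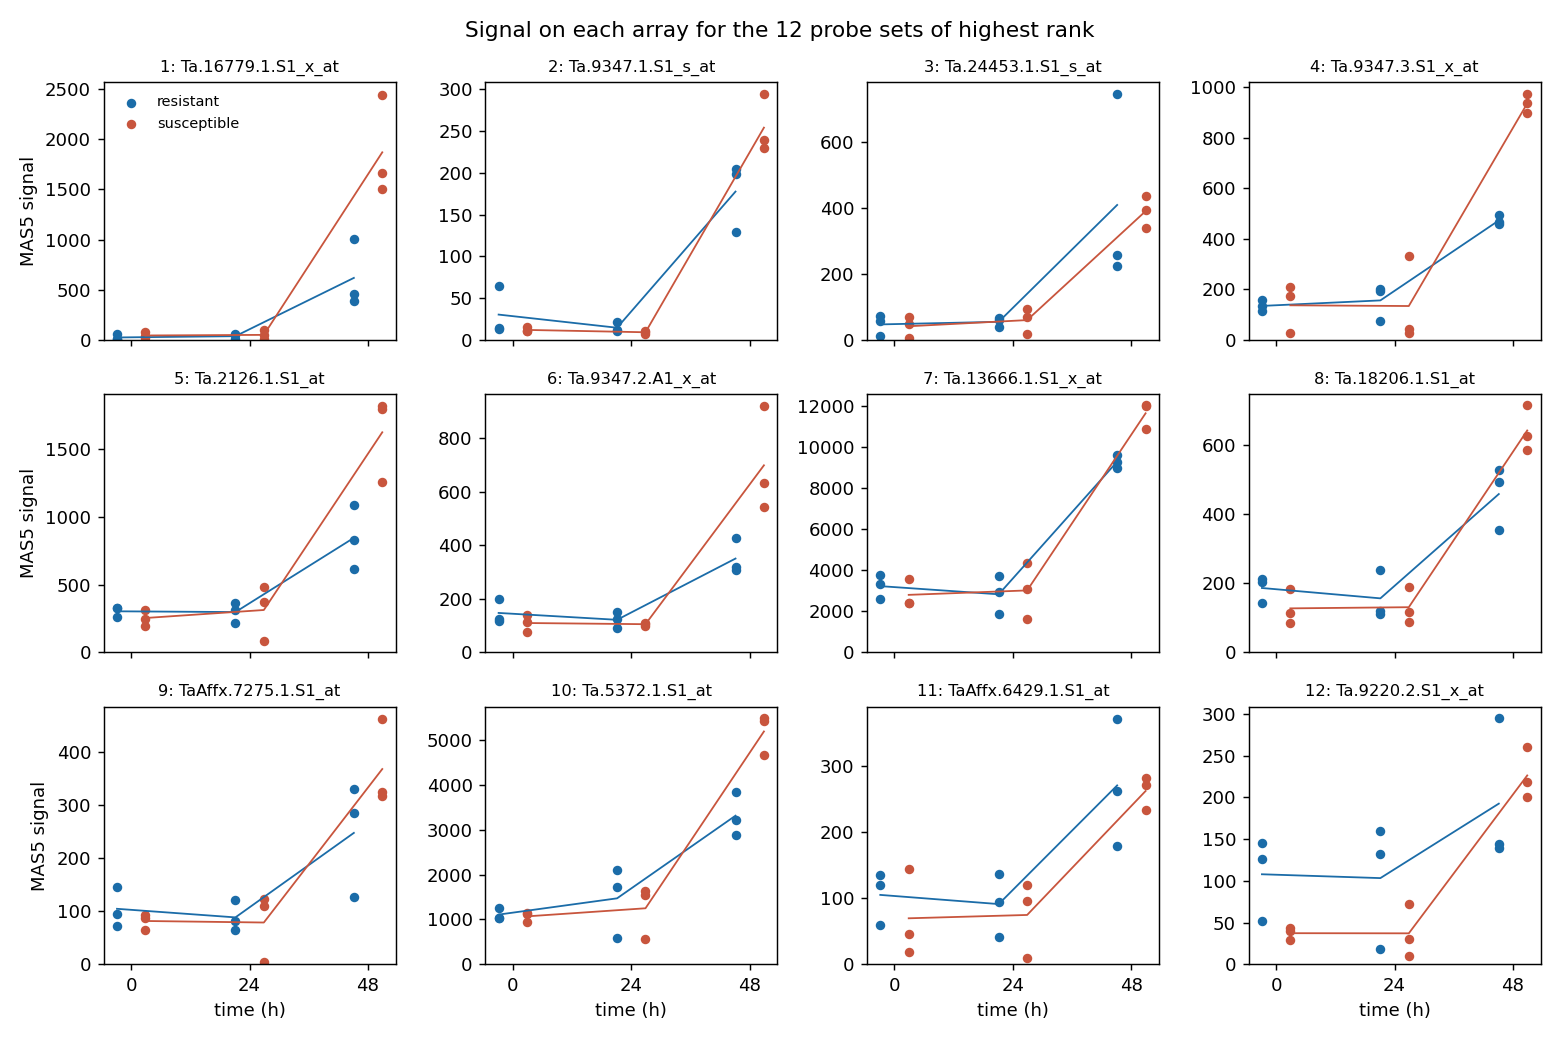
Signal (linear scale) on each array against time in hours for the 12 late risers of highest rank, with resistant arrays left of susceptible ones at each time and lines through the group means. All 12 have their highest group means at 48 h in both lines, and in Ta.16779.1.S1_x_at the lines lie well apart then (385 to 1010 in resistant leaves, against 1500 to 2442 in susceptible leaves).

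Besides Ta.13666.1.S1_x_at, the members with the 5 highest 48 h signals were both probe sets of the stem Ta.28750, Ta.1730.1.A1_at and Ta.6053.1.S1_at, which is described further on. Signals of different probe sets are not levels that can be compared between genes. Ta.28750.1.S1_x_at gave signals of 28343, 17522 and 24025 at 0 h, 24755, 32388 and 30263 at 24 h, and 48211, 53008 and 42349 at 48 h in resistant leaves. In susceptible leaves it gave 22311, 21837 and 19480.2 at 0 h, 20580.1, 22386 and 14859 at 24 h, and 43808, 37426 and 38017 at 48 h. The second probe set of this stem, Ta.28750.1.S1_at, gave 31544, 20614 and 28862 at 0 h, 25431, 31837 and 29112 at 24 h, and 48036, 50478 and 39999 at 48 h in resistant leaves. It gave 24524, 26288 and 20418 at 0 h, 19822, 22336 and 14487 at 24 h, and 42902, 36424 and 36750.3 at 48 h in susceptible leaves. In both probe sets every 48 h array was above every earlier array of its line, and the 24 h arrays of the resistant line were above those of the susceptible line. Ta.1730.1.A1_at gave signals of 10258, 9435 and 10304 at 0 h, 12469, 11343 and 13673 at 24 h, and 16662, 20137 and 20292 at 48 h in resistant leaves. The susceptible arrays gave 9583, 7472 and 10013 at 0 h, 9005, 5896 and 9964 at 24 h, and 16665, 16551 and 16627 at 48 h. The late changes of these 3 were 0.72, 0.68 and 0.60 in resistant leaves, in the order given, and 1.06, 1.05 and 1.04 in susceptible leaves.

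Among the 7 members with a LOC number, LOC100037584 had the highest rank, 15. Its probe set Ta.28834.1.S1_at gave signals of 316, 289 and 293 at 0 h, 218, 448 and 459 at 24 h, and 1142, 1069.5 and 923 at 48 h in resistant leaves. Its signals in susceptible leaves were 356, 284 and 298 at 0 h, 589, 175 and 208 at 24 h, and 850.2, 993 and 1011 at 48 h. The lines overlapped at 48 h, and the late changes were 1.51 in resistant and 1.71 in susceptible leaves. LOC778407 (probe set Ta.13471.1.S1_at) gave signals of 51.4, 84.4 and 67.5 at 0 h, 30.8, 36.1 and 131 at 24 h, and 92.2, 99.9 and 106 at 48 h in resistant leaves. On the susceptible arrays it read 29.4, 82.8 and 67.6 at 0 h, 42.7, 37.2 and 29.5 at 24 h, and 202, 176 and 244 at 48 h. Here the resistant arrays at 48 h did not clear replicate 3 at 24 h, whereas the susceptible arrays at 48 h were above every earlier one. The line difference at 48 h was -0.95 ± 0.40 (SE, n = 3 arrays per group, limma adjusted p = 0.154) and missed the threshold.

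LOC542799 was the gene with the clearest difference between the lines among these. Its probe set Ta.13183.1.S1_s_at gave signals of 1506, 1638 and 1496 at 0 h, 1551, 1881 and 1376 at 24 h, and 3079.6, 2220.2 and 2921 at 48 h in resistant leaves. Signals in susceptible leaves were 1699, 1682 and 1893 at 0 h, 2699, 1160.3 and 2738 at 24 h, and 7864, 5013 and 7176 at 48 h. The second probe set, Ta.13183.1.S1_x_at, gave 1800.2, 1331 and 1502 at 48 h in resistant leaves and 4511, 3079.9 and 4097 in susceptible leaves. In both, the 3 resistant arrays at 48 h were below the 3 susceptible ones, with line differences of -1.27 ± 0.24 (SE, n = 3 arrays per group, limma adjusted p = 0.00104) and -1.32 ± 0.25 (SE, n = 3 arrays per group, limma adjusted p = 0.00128). At 0 h the differences were -0.18 and -0.22, with limma adjusted p of 0.944 and 0.931. Both probe sets are of 1 stem and are counted as 1 gene.

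None of the other 3 genes with a LOC number was called between the lines at any time. LOC543123 (probe set Ta.25469.1.S1_at) gave signals of 812, 587 and 604 at 0 h, 542, 904 and 1182 at 24 h, and 1412, 1660.0 and 2176 at 48 h in resistant leaves. In susceptible leaves it gave 744, 700.3 and 647 at 0 h, 1056, 457 and 1720.1 at 24 h, and 2359, 2204 and 2470.2 at 48 h. Its late changes were 1.03 in resistant and 1.30 in susceptible leaves, and resistant replicate 1 and susceptible replicate 2 were the low arrays at 24 h. LOC542827 (probe set Ta.209.1.S1_at) gave signals of 1303, 1513 and 1497 at 0 h, 925, 1380.3 and 1166 at 24 h, and 2588, 2370.1 and 2326 at 48 h in resistant leaves. The susceptible arrays gave 1470.1, 1846 and 1685 at 0 h, 2252, 1198 and 1882 at 24 h, and 3728, 3189 and 3335 at 48 h. The late changes were 1.08 and 0.98 in resistant and susceptible lines, and the line difference at 48 h was -0.49 ± 0.18 (SE, n = 3 arrays per group, limma adjusted p = 0.0806), which missed the threshold although the arrays of the lines did not overlap. LOC543038 (probe set Ta.6053.1.S1_at) gave signals of 5425, 4829 and 4675 at 0 h, 6186, 7451 and 7222 at 24 h, and 10786, 11814 and 10524 at 48 h in resistant leaves. Its signals in susceptible leaves were 4822, 5198 and 5645 at 0 h, 7361, 5432 and 6146 at 24 h, and 10844, 11102 and 10543 at 48 h. This gene's late changes were 0.67 and 0.79 in resistant and susceptible lines, near the threshold of the rule. The other probe set of LOC543038, Ta.29358.1.A1_at, was no member, because it had already changed by 0.92 in resistant and 0.61 in susceptible leaves at 24 h. Its late changes were 1.03 and 1.26 in those lines, so 2 probe sets of 1 gene symbol fell on different sides of the flat window. The second probe set of LOC100037584, TaAffx.29849.1.S1_at, did not follow its member. It was too dim to be tested, with a largest group mean of 69.7, and its late changes were 0.36 and -0.04 in resistant and susceptible leaves.

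The rule did not use the names of the probe sets, and the members' names differed from those of all tested probe sets in 2 ways. Names in _x_at made up 20% of the members (40), against 12.6% of all tested probe sets, and names in _s_at 11% (22), against 4.91%. Names that begin with Ta made up 76.5% (153), against 56.6%, and those with TaAffx 23.5% (47), against 43.4%. Nothing here shows that this is particular to the late risers, since the signal floor of the rule was not applied to the comparison set. The 200 members lay on 184 stems, of which 169 held 1 member, 14 held 2 and Ta.9347 held 3.

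After Ta.9347, the members of the stems Ta.29532 and Ta.28384 are given, the best ranked of the 14 stems with 2 members. Their late changes are alike by the choice of members. The stem Ta.29532 held Ta.29532.1.S1_x_at and Ta.29532.1.S1_at, with late changes of 1.49 and 1.28 in resistant leaves and 1.64 and 1.77 in susceptible leaves. Ta.29532.1.S1_at gave signals of 1402, 1179 and 1228 at 0 h, 863, 1332 and 1374 at 24 h, and 2278, 2966 and 3426 at 48 h in resistant leaves. On the susceptible arrays it read 1579, 897 and 1212 at 0 h, 1169.6, 716 and 806 at 24 h, and 3355, 2952 and 2781 at 48 h. The lines overlapped at all times in this probe set. The stem Ta.28384 held Ta.28384.1.S1_at and Ta.28384.1.S1_s_at, both lower in resistant leaves at 48 h. Ta.28384.1.S1_at gave signals of 1824, 1998 and 2016 at 0 h, 1660.3, 2547 and 2478 at 24 h, and 4227, 5139.9 and 3855 at 48 h in resistant leaves. Signals in susceptible leaves were 1737, 1812 and 2205 at 0 h, 3937, 1627 and 2659 at 24 h, and 7672, 6772 and 8059 at 48 h. The line differences at 48 h were -0.77 ± 0.22 (SE, n = 3 arrays per group, limma adjusted p = 0.0241) and -0.75 ± 0.20 (SE, n = 3 arrays per group, limma adjusted p = 0.0148).

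Probe sets on the members' stems that were not themselves members give values that the choice of members did not use directly, although they can share sequence and do share the arrays. There were 123 such tested probe sets on 62 stems, and 98 of them (79.7%) were higher at 48 h than at 24 h in both lines, against 28.0% of all tested probe sets. A change of 0.6 or more in both lines was found in 45 (36.6%), against 3.98% of all tested probe sets. The median late change of the 123 was 0.51 in resistant and 0.74 in susceptible leaves. Of the 45, 39 were no members because they had left the flat window by 24 h, which follows from leaving the members out. The largest was Ta.16779.1.S1_at, with a late change of 3.42 in resistant and 5.59 in susceptible leaves after 0.66 and 0.72 by 24 h. On the stem of Ta.9220.2.S1_x_at, the probe set Ta.9220.1.S1_a_at had already changed by 4.15 in resistant and 3.17 in susceptible leaves at 24 h, and added 0.73 and 1.19 by 48 h.

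The lines were compared at each time with limma, fitted over all 46183 tested probe sets with p-values adjusted over all of them, and called below 0.05. The rule set no limit on the difference between the lines, but its windows hold the difference at 24 h within 1 of that at 0 h. At 0 h none of the 200 members was called, where 0.0217% of all tested probe sets were. At an unadjusted limma p under 0.05 there were 4 of the 200 members, where 6.87% of all tested probe sets were. The smallest adjusted p of the members was 0.42. The median difference, resistant minus susceptible, was 0.02 (range -1.25 to 1.13).

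At 24 h 10 members were called (5%), close to the 5.16% of all tested probe sets. Of these 9 were higher in resistant leaves (4.5%, against 2.38% of all tested) and 1 was lower (0.5%, against 2.78%). Ta.14844.1.A1_at gave signals of 1421, 1399 and 1501 at 0 h, 1293, 1803 and 2165 at 24 h, and 3076, 4103 and 4227 at 48 h in resistant leaves. In susceptible leaves it gave 1141, 1255 and 1299.6 at 0 h, 1192, 762 and 1012 at 24 h, and 2985, 3487 and 2803 at 48 h. The resistant arrays were above the susceptible ones already at 0 h, where the difference was not called, and at 24 h. The line difference at 24 h was 0.81 ± 0.17 (SE, n = 3 arrays per group, limma adjusted p = 0.00654). At 24 h Ta.9282.1.S1_at gave 929.7, 769 and 609.7 in resistant leaves, against 609, 212 and 439.8 in susceptible leaves. Ta.516.1.S1_s_at gave 2670.2, 3667 and 4084 in resistant leaves, against 2973, 1596 and 2126 in susceptible leaves. In the second the arrays of the lines overlapped and in the first they did not. The line difference of Ta.9282.1.S1_at was 0.95 ± 0.25 (SE, n = 3 arrays per group, limma adjusted p = 0.0331) and that of Ta.516.1.S1_s_at 0.66 ± 0.18 (SE, n = 3 arrays per group, limma adjusted p = 0.0378). For Ta.28750.1.S1_at and Ta.1730.1.A1_at, whose arrays are given above, it was 0.63 ± 0.16 (SE, n = 3 arrays per group, limma adjusted p = 0.0275) and 0.62 ± 0.15 (SE, n = 3 arrays per group, limma adjusted p = 0.0159). The 10 included both probe sets of the stem Ta.28750, and the 6 named calls were lost in 2 to 8 of 29 alternatives each. The low array, susceptible replicate 2, moved with these calls. Without it 5 members were called higher and 10 lower in resistant leaves, and without resistant replicate 3 at 24 h 2 members were called in all. Without susceptible replicate 3 at 24 h 5 were called. The direction of the differences at 24 h thus rested on single arrays.

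At 48 h 23 members were called (11.5%), again close to the share of all tested probe sets, 12.1%. They included both probe sets of LOC542799 and of Ta.28384. Their direction was less even, with 2 higher in resistant leaves (1%, against 6.71% of all tested) and 21 lower (10.5%, against 5.4%). Over all 200 members the median difference was -0.16 and 133 of the 200 were below 0, against a median of 0.03 and 46.9% of all tested probe sets. The other risers leaned the same way, with a median of -0.24, 7.56% called higher and 21.9% called lower in resistant leaves. The lean towards the susceptible line at 48 h was thus shared with the other risers. At 48 h all 3 resistant arrays were below all 3 susceptible ones for 74 members (37%), where 13.4% of all tested probe sets and 40.7% of the other risers were so placed. The reverse held for 20 members (10%), where 16.5% of all tested probe sets and 17.3% of the other risers did so. At 24 h the resistant arrays were all above the susceptible ones for 13 members (6.5%, against 11.2% of all tested) and all below them for 4 (2%, against 9.11%). At 0 h these numbers were 10 members (5.18% of all tested) and 12 members (5.31% of all tested).

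**Figure D4:**
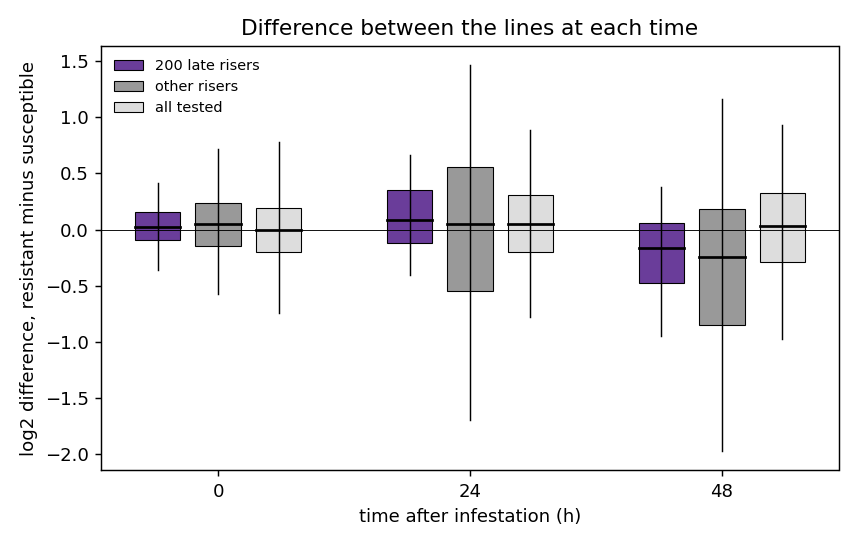
Difference between the lines (resistant minus susceptible, log2 scale) at 0 h, 24 h and 48 h for the 200 late risers, the 1084 other risers and all 46183 tested probe sets, with boxes over the quartiles, a bar at the median and whiskers from the 5th to the 95th percentile. The median of the late risers is 0.02 at 0 h, 0.09 at 24 h and -0.16 at 48 h, and the other risers spread more widely at 24 h and 48 h.

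Of the members lower in resistant leaves at 48 h, Ta.1177.1.S1_at had the smallest adjusted p of those named. Ta.1177.1.S1_at gave signals of 903, 791 and 1199 at 0 h, 978, 835 and 774 at 24 h, and 1961, 1013 and 1354 at 48 h in resistant leaves. The susceptible arrays gave 778, 987 and 901 at 0 h, 1032, 818 and 1033 at 24 h, and 2995, 3073 and 3449.9 at 48 h. The lines overlapped at 0 h and 24 h and parted at 48 h, with a line difference of -1.18 ± 0.19 (SE, n = 3 arrays per group, limma adjusted p = 0.000262). TaAffx.24010.1.S1_s_at gave signals of 126, 139 and 94.3 at 0 h, 115, 226 and 102 at 24 h, and 492, 155 and 286 at 48 h in resistant leaves. Its signals in susceptible leaves were 273, 425 and 241 at 0 h, 323, 218 and 536 at 24 h, and 903, 753 and 1030.5 at 48 h. Here the resistant arrays were below the susceptible ones already at 0 h and the line differences were -1.25 ± 0.36 (SE, n = 3 arrays per group, limma adjusted p = 0.42), -1.18 and -1.61 ± 0.36 (SE, n = 3 arrays per group, limma adjusted p = 0.00502) at 0 h, 24 h and 48 h, so that only the last passed the threshold. Ta.3174.1.S1_at gave signals of 439, 322 and 253 at 0 h, 295, 264 and 321 at 24 h, and 599, 421 and 583 at 48 h in resistant leaves. On the susceptible arrays it read 386, 275 and 534 at 0 h, 729, 294 and 555 at 24 h, and 1309, 1356 and 1437 at 48 h. The line difference of this probe set at 48 h was -1.35 ± 0.27 (SE, n = 3 arrays per group, limma adjusted p = 0.00195). These 3 and both probe sets of LOC542799 were below the threshold in all 29 alternatives.

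The 2 members higher in resistant leaves at 48 h were of moderate signal. Ta.13546.1.A1_at gave signals of 197, 168 and 210.4 at 0 h, 176, 178 and 157 at 24 h, and 639, 618 and 328 at 48 h in resistant leaves. Signals in susceptible leaves were 163, 63.4 and 121 at 0 h, 104, 99.0 and 136 at 24 h, and 225, 157 and 243 at 48 h. All resistant arrays were above all susceptible ones already at 0 h and 24 h, and again at 48 h, but only the last difference was called. The line difference at 48 h was 1.24 ± 0.29 (SE, n = 3 arrays per group, limma adjusted p = 0.00715), which missed the threshold on the scale of the hybridisation controls. Ta.4041.1.S1_x_at gave signals of 133, 136 and 90.5 at 0 h, 137, 168 and 115 at 24 h, and 299, 613 and 435 at 48 h in resistant leaves. In susceptible leaves it gave 107, 203 and 121 at 0 h, 114, 139.7 and 145 at 24 h, and 239, 181 and 249 at 48 h. Its line difference at 48 h was 0.92 ± 0.28 (SE, n = 3 arrays per group, limma adjusted p = 0.0367), which missed the threshold in 8 of 29 alternatives. The member called at both times, TaAffx.3522.4.S1_s_at, gave 2901, 2296 and 2289 at 24 h and 5089, 3687 and 4253 at 48 h in resistant leaves, against 3424, 3133 and 3488 and 5951, 5555 and 6467 in susceptible leaves. It was lower in resistant leaves at both times, with line differences of -0.43 ± 0.12 at 24 h and -0.47 ± 0.12 at 48 h on the log2 scale (SE, n = 3 arrays per group, limma adjusted p = 0.0328 and 0.00893). Before infestation, at 0 h, its resistant arrays were already all below the susceptible ones, although the difference was not called then. The count at 48 h rested on single arrays too. It was 10 without susceptible replicate 3 at 48 h, 12 without susceptible replicate 1, 12 without resistant replicate 2 and 14 without resistant replicate 3.

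Genes with a name give the setting of the late interval in the same leaves. The named genes whose 6 group means were most like the mean profile of the members were LTP3, a lipid transfer protein (Pearson r 0.94 over 6 group means), LMGli2482 (0.89) and RPS29, a protein of the small ribosomal subunit (0.89). These values describe likeness only, since the points share arrays, and they are those of each gene's most similar probe set. The other probe set of RPS29, Ta.30687.2.S1_x_at, had r -0.83 and late changes of -0.79 in resistant and -1.12 in susceptible leaves. For the other one of LTP3, Ta.1282.4.S1_at, r was near 0. LTP3 changed by 0.16 in resistant and 0.39 in susceptible leaves in the late interval, far less than any member. RPS29 had already changed by 1.06 in resistant leaves at 24 h and so was not flat there. Of the other risers, 7 probe sets belonged to 6 genes with a name.

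Lists of named genes, written with earlier results of these data known, were followed over the same interval with limma. Between 24 h and 48 h 5.18% of all tested probe sets were called in resistant leaves, with 2.57% higher and 2.61% lower at 48 h. The share was 10.2% in susceptible leaves, with 4.82% higher and 5.33% lower. Of 19 defence probe sets (11 genes), none was called higher and 1 lower in resistant leaves, and 1 was called higher and 2 lower in susceptible leaves. Those that fell were of lgul, a lactoylglutathione lyase, and the one that rose was of Glc1, a glucanase gene, by 0.97 (limma adjusted p = 0.00152, n = 3 arrays per group). The other Glc1 probe set, a dim one, changed by -0.82 in resistant and 0.67 in susceptible leaves and was called in neither. Of 33 photosynthesis probe sets (10 genes), none was called in resistant leaves, and 6 fell and none rose in susceptible leaves, among them those of FBP, CAT1, petC and PsbP. All 6 calls were lost on the hybridisation control scale, and none of them changed sign there. The median late change of the photosynthesis list was -0.16 in resistant and -0.08 in susceptible leaves, near the -0.04 of all tested probe sets in each. Most tested probe sets of this list were of rbcL, many of them dim, and none of the 6 calls was of rbcL. These medians therefore say little about the other photosynthesis genes. Of 14 stress and hormone probe sets (9 genes), 1 rose and 1 fell in resistant leaves, and 2 rose and 1 fell in susceptible leaves. PEAMT1, a phosphoethanolamine methyltransferase, rose by 0.83 in resistant leaves, and LTP3 by 0.39 and WZF1, a zinc finger protein, by 0.81 in susceptible leaves. The rise of PEAMT1 followed a change of -3.17 by 24 h, with resistant means of 15338, 1700 and 3010 at 0 h, 24 h and 48 h. WZF1 had already changed by 1.01 in susceptible leaves at 24 h. Of GA20ox1D, a gibberellin 20-oxidase, 1 probe set fell by 2.13 in resistant and by 1.77 in susceptible leaves. Its other tested probe set changed by -0.82 and -1.44 in those lines and was called in neither. The calls of PEAMT1, LTP3 and GA20ox1D were each lost in 3 to 8 of 29 alternatives. Both probe sets of the gliadin LMGli2482 rose in susceptible leaves, by 4.60 and 4.22, and 1 in resistant leaves, by 2.54 (limma adjusted p = 0.0398, n = 3 arrays per group), a call that was lost in 11 of 29 alternatives. The probe set called in both lines, Ta.905.2.S1_x_at, had mean signals of 9.14, 11.0 and 193 in resistant leaves at 0 h, 24 h and 48 h. In susceptible leaves they were 11.8, 92.9 and 1925. The arrays were uneven, with a standard deviation of 189 in resistant leaves at 48 h. In susceptible leaves it was 91.9 at 24 h and 861 at 48 h. The grain list held 4 probe sets (2 genes), and its part in the late change of the members was not tested.

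Membership depended on the scale of the arrays, because the rule sets absolute limits on changes that are relative to the deposited trimmed mean. After quantile normalization 170 of the 200 still met the thresholds, after centring each array on its median 127, and with offsets of 1 and 64 in place of 16 184 and 165. On the scale of the 18 bacterial hybridisation control probe sets only 34 did. There the median 24 h minus 0 h change of all tested probe sets was 0.55 in resistant and 0.32 in susceptible leaves, so that 39 members stayed flat in both lines, while 132 kept a late change of 0.6 or more in both. The median late change of the members on that scale was 0.70 in resistant and 1.41 in susceptible leaves, against -0.20 and 0.22 for all tested probe sets. With 1 array left out, 130 to 198 members met the thresholds, fewest without resistant replicate 1 at 24 h. In all 23 alternatives the late change of every member was above 0 in both lines, and it was larger in susceptible leaves for 134 to 197 members. Since the members were chosen for a late change of 0.6 or more, its sign was largely fixed in advance. Leaving out a 0 h array cannot move the late change at all.

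**Figure D5:**
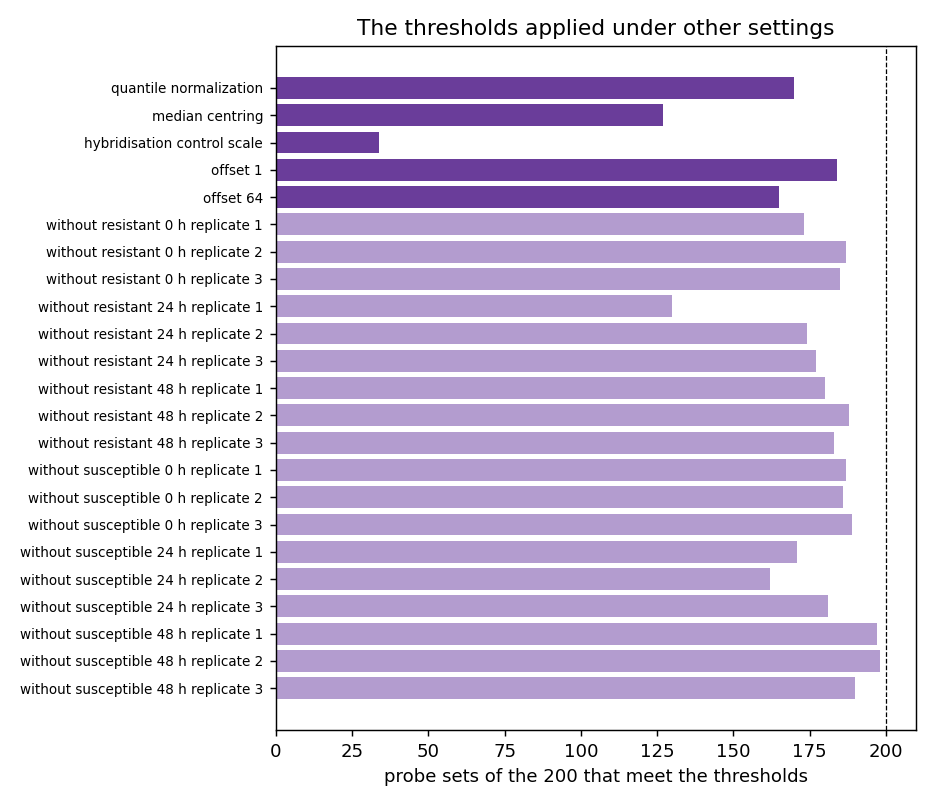
Number of the 200 late risers that still met the signal and time thresholds under each of 23 alternatives (dark bars for scales and offsets, light bars for 1 array left out), with a dashed line at 200. The number is lowest on the hybridisation control scale (34) and after median centring (127), and lies between 130 and 198 with 1 array left out.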

How the data were processed

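RNA from leaf samples of 2 wheat lines at 3 times was hybridised to 18 one-colour Affymetrix arrays. The values deposited by the authors were probe-set intensities on a linear scale, made with MAS5 per the submitters' processing notes, which give no version. The mean of every array, with 2% trimmed at each end, was 500.1. Changes are therefore relative to that level. No detection calls are used here.

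Signals were analysed as log2(signal + 16), an offset that understates changes of dim probe sets. After 175 control probe sets were left out, 46183 probe sets that exceeded the 40th percentile of their array on 3 or more arrays were tested and 14932 were not. R 4.3.3 and limma 3.58.1 served to fit a model of the 6 groups, with a variance trend and Benjamini-Hochberg adjustment over all of them, and these steps were tested on simulated data. Only the differences between the lines and the late change of the named-gene lists were tested. The time changes of members, which chose them, were not.

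Gene symbols came from an old platform annotation (1273 probe sets with 1 symbol, 60017 with none) and the IWGSC CS RefSeq v2.1 gene table, which held 770 of 771 annotated genes. LOC numbers were given a name where that table listed one as a synonym. The members, lists and tests were chosen with earlier results of these data known. The members named were the 12 of highest rank, those with a LOC number, the 5 brightest at 48 h, up to 5 per time and direction with the largest called line difference, those of the 3 stems with most members (ties by best rank), and those at the edge of the list. Same-numbered replicates did not deviate together (r from -0.04 to 0.06 over 45 pairs).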

Additional observations from a re-analysis of the deposited data

How the results depend on the processing

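Groups of 3 arrays limit the precision, and without detection calls the dim end of the members before 48 h has no set bound. The 31 named results under 29 alternatives each gave 899 values, which are not independent. Of these, 783 kept their direction and side of the threshold, 116 missed the threshold and none changed sign. All 31 were named as called, so only losses could appear. Most arrays left out lay outside the groups compared and could not move the difference itself, so the lack of sign changes says little. Members meeting the rule numbered 127 after median centring and 34 on the hybridisation control scale, in place of 200, and 130 to 198 with 1 array left out. Line differences called among members at 48 h numbered 38 on the hybridisation control scale (none higher in the resistant line), 14 without the variance trend and 50 with only the compared arrays, in place of 23, and 10 to 31 with 1 array left out. At 24 h they numbered 3, 17 and 1 without the trend, with array weights and with only the compared arrays, in place of 10, and 2 to 15 with 1 array left out. After median centring, 3 of the 24 h calls were higher and 4 lower in resistant leaves. For 0 h there were 0 throughout. Called probe sets of the gene lists in the late interval numbered 1 without the trend and 7 with the replicate block in the resistant line, in place of 4, and 1 to 8 with 1 array left out. In the susceptible line they numbered 9 on the hybridisation control scale, 7 without the trend and 8 with only the compared arrays, in place of 14, and 8 to 15 with 1 array left out. The cause of these shifts was not tested. Replicate numbers mark no shared origin in the labels, and 10 of 18 arrays correlated best with their own number. These correlations were small, with a median r of 0.006 between arrays of the same replicate number and -0.002 between those of different numbers. With the number as a block 0, 11 and 24 members were called at 0 h, 24 h and 48 h.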
